A study of Mus musculus with 2 samples.

Results

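The genes that carry vitamin A in blood and turn it into retinoic acid were described in embryonic mouse liver: the plasma carriers Rbp4 and Ttr, the retinol receptor Stra6, the ester-forming enzyme Lrat, the retinol and retinaldehyde enzymes Rdh10 and Dhrs3, and the retinaldehyde dehydrogenases Aldh1a1, Aldh1a2 and Aldh1a3. These 9 genes were chosen by name, and all 9 were found among the 43346 genes of the tables by their gene identifiers. Whole liver was taken from healthy B6NCrl mouse embryos at embryonic day 15.5, and total RNA longer than 200 nt was sequenced with synthetic spike-in RNAs added to 10 ng of RNA. A single group was studied, with 2 libraries that the labels call biological replicates. Replicate 1 pooled 78 embryos and replicate 2 pooled 62, with males and females in each pool. No embryo was labelled as treated or mutant. The comparisons are therefore between genes within a library, between transcripts of a gene, and between the 2 pools.

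Vitamin A is stored as retinyl esters, and the liver is its main store in the adult. Stored retinol leaves the liver bound to retinol binding protein 4 (RBP4), which travels in plasma with transthyretin (TTR), and cells can take retinol up through the receptor STRA6. Lecithin retinol acyltransferase (LRAT) makes the esters, retinol dehydrogenases such as RDH10 oxidise retinol to retinaldehyde, DHRS3 reduces retinaldehyde back to retinol, and the ALDH1A enzymes oxidise retinaldehyde irreversibly to retinoic acid, the ligand of nuclear retinoic acid receptors.

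Levels are in TPM (transcripts per 1000000 transcripts), which corrects counts for transcript length, rescaled to the genes without spike-ins and given as mean ± SD over n = 2 libraries. The tables held 34039426 expected counts of genes in replicate 1 and 44200838 in replicate 2. The liver label was borne out by the hepatocyte markers: 12 of 12 reached 1 TPM in each library, none was at 0, and Trf was the highest by mean level. Their summed level was 50672 TPM in replicate 1 and 40897 TPM in replicate 2. Replicate 1 also held more RNA of pancreas markers, which summed to 73.7 TPM against 18.9 TPM, with 5 of 10 reaching 1 TPM in each library and Pnlip at 0 in both. In bulk tissue, fewer cells of a type and less RNA per cell cannot be told apart.

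The 9 genes ranged from 1719 TPM to under 1 TPM, and the carriers of plasma retinol made up nearly all of their RNA. Rbp4 and Ttr together summed to 3167 TPM in replicate 1 and 2819 TPM in replicate 2, which was 98.8% and 98.9% of the summed TPM of the 9 genes. Dhrs3 followed at 28.0 TPM, Rdh10 and Lrat at about 2 TPM, the 3 Aldh1a genes below 1 TPM, and Stra6 at the limit of what the depth could show. A level of 1 TPM or more in both libraries was reached by 5 of the 9 genes (Rbp4, Ttr, Dhrs3, Rdh10 and Lrat). The same limit was reached by 28.4% of all genes in the tables, many of which are not protein-coding. In the order of levels, the TPM ranges of neighbours over the 2 libraries did not overlap except for Aldh1a2 and Aldh1a1. Because 2 libraries cannot give an exact two-sided sign test below p = 0.5, no test of the order was made.

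**Figure D1:**
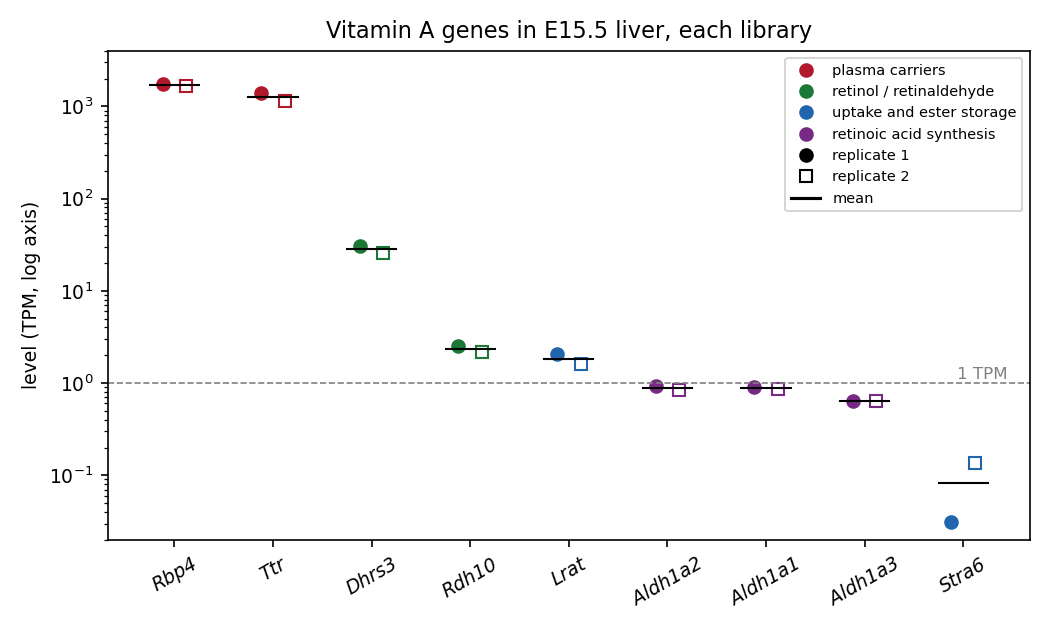
Level of each of the 9 genes in TPM on a log axis, with 1 filled circle for replicate 1, 1 open square for replicate 2 and a bar at their mean; colours give the role and the dashed line is 1 TPM. Rbp4 and Ttr are the highest points in both libraries, the 3 Aldh1a genes below 1 TPM, and Stra6 is the gene with the largest gap between its 2 points.

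Rbp4, which encodes the plasma carrier of retinol, was the highest of the 9 genes and ranked 37 of 43346 by mean level. It lies at chr19:38116629-38125281 on the minus strand (GRCm38, gene ENSMUSG00000024990). Its level was 1759 TPM in replicate 1 and 1678 TPM in replicate 2 (1719 ± 57.3), from 45618 and 58661 expected counts. The libraries were close for this gene, with an SD of 3.33% of the mean.

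Nearly all Rbp4 RNA was assigned to the shorter of its 2 annotated transcripts, both protein-coding, which differ in where they start. Rbp4-202, which starts at base 38124828, held 99.5% of the gene's TPM in both libraries (99.5% ± 0.0111). Rbp4-201 starts 420 bases upstream and held 0.518% and 0.502% (0.510% ± 0.0111), or 324 and 404 expected counts. The upstream transcript was thus the minor one in both pools. The sequences before the 2 starts are shown because the transcript shares differ so widely between them. They are the genomic bases, outside annotated exons, within 250 bases before each RefSeq start (RefSeq, GRCm38.p6), written 5′ to 3′ on the minus strand, with CG dinucleotides in capitals. The first is chr19:38124829-38124954, before the start of Rbp4-202. The second is chr19:38125322-38125571, before the upstream RefSeq start at base 38125321. The annotated start of Rbp4-201 is base 38125248, so the second stretch does not adjoin it.
Rbp4 major start: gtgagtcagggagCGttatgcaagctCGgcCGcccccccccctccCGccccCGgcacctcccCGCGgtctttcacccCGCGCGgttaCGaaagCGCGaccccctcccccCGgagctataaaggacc
Rbp4 upstream start: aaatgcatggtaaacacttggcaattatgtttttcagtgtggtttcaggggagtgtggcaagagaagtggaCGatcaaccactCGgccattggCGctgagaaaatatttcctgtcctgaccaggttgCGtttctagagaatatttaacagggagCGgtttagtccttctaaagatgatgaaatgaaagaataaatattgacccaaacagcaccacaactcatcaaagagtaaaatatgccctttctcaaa
The 126 bases before the major start held 14 CG dinucleotides at 71.4% G or C, against 5 in 250 bases at 40.8% before the upstream RefSeq start. Over the 300-base windows around the RefSeq starts (250 bases before and 50 after), the counts were 40 and 5 CG dinucleotides. The median of 32817 such mouse promoter windows was 7 CG dinucleotides, with 37 at the 95th percentile. The letters TATAAA, the core of the TATA box at which the general transcription machinery can assemble, were found at chr19:38124834-38124839. The match begins 28 bases before the RefSeq start of this window, base 38124811. It lies nearer to the annotated start of Rbp4-202, base 38124828, which is upstream of that RefSeq start.
Rbp4 match to TATAAA, in capitals: cccggagcTATAAAggaccgac
The same letters, on either strand, were in 13.6% of all promoter windows and in none of the other 12 windows of these genes, so the match describes this window and no more.

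Ttr, which encodes transthyretin, the protein that holds RBP4 in plasma and also carries thyroid hormone, was the other abundant gene and ranked 49. It lies on chromosome 18 from 20665280 to 20674321 on the plus strand (gene ENSMUSG00000061808) and had 1 transcript in the tables. Its level was 1408 TPM in replicate 1 and 1141 TPM in replicate 2 (1274 ± 189), from 49112 and 53658 expected counts. Replicate 1 was the higher pool, and the spread was wider than that of Rbp4, with an SD of 14.8% of the mean.

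Rbp4 exceeded Ttr per unit of transcript length in both libraries. The ratio of their TPM was 1.25 in replicate 1, with a 95% counting interval of 1.23 to 1.27, and 1.47 in replicate 2, with an interval of 1.45 to 1.49 (exact Clopper-Pearson). Such intervals describe the counting error of reads and nothing else. PCR copies of a molecule were counted as separate reads, so the intervals can be too narrow even for the counting of molecules. In expected counts, without the length correction, the order differed between the pools: Rbp4 had 0.929 times the counts of Ttr in replicate 1 and 1.09 times in replicate 2. The order of the carriers thus rests on the length correction, with lengths of 1219 nt for Ttr and 932 nt for Rbp4. Choroid plexus epithelium is another tissue known for high Ttr, and the 7 markers of choroid plexus and neurons were low in both libraries: 0 of 7 reached 1 TPM in both, and their sum was 2.28 and 2.37 TPM. The highest of the 7 was Foxj1, with 77 expected counts in each library. Kl had 9 and 19, Kcnj13 3.59 and 5.59, and Otx2, the lowest, 0 and 2. Any part of choroid plexus in the Ttr level was not tested.

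Stra6, the cell surface receptor that moves retinol from RBP4 into cells, was at the limit of detection. It lies at chr9:58063788-58153996 on the plus strand (gene ENSMUSG00000032327). The gene had 2 expected counts in replicate 1, with an exact 95% Poisson interval of 0.242 to 7.22, and 4 in replicate 2, with an interval of 1.09 to 10.2. For comparison, a library with 0 counts of a gene would still allow up to 3. In counts per 1000000 counts of genes the level was 0.0588 and 0.0905, and 3 counts correspond to 0.0881 and 0.0679. The rescaled TPM was 0.0311 in replicate 1 and 0.134 in replicate 2. The few reads were assigned to different ones of its 14 transcripts, and the gene's length in the authors' tables was 2107 nt in replicate 1 and 800 nt in replicate 2. From so few counts the TPM of Stra6 gives no measure of a difference between the pools. The annotated span of Ccdc33, on the opposite strand, overlaps Stra6, and Ccdc33 had 0 counts in both libraries.

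Stra6l, a relative of Stra6 known as a second RBP4 receptor gene (also called Rbpr2), had more RNA than Stra6 in both pools. Its level was 6.70 TPM in replicate 1 and 5.50 TPM in replicate 2, from 750 and 810 expected counts. The counts of Stra6l and Stra6 did not approach each other in either library. Among the 6 genes of the list for retinoid uptake and carotenoid cleavage, which leaves out Stra6, 4 reached 1 TPM in both libraries. Scarb1, a scavenger receptor for lipoproteins and carotenoids, was the highest at 80.9 and 70.8 TPM. Lrp1, an endocytic receptor for chylomicron remnants that carry dietary retinyl esters, was at 28.6 and 21.2 TPM. The lowest was Lrp2, the megalin gene, at 0.0414 and 0.103 TPM.

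Lrat, the enzyme that esterifies retinol for storage and a known gene of hepatic stellate cells, was detected at a low level. It lies at chr3:82892579-82903973 on the minus strand (gene ENSMUSG00000028003) and had 1 transcript. The level was 2.06 TPM in replicate 1 and 1.59 TPM in replicate 2 (1.83 ± 0.334), from 338 and 351 expected counts. Replicate 1 was the higher pool, and the counting error of this difference is given with the comparison of the pools. In the same libraries 10 of 12 stellate and mesenchymal markers reached 1 TPM in both, none was at 0, and their sum was 267 and 260 TPM. Lhx2, a transcription factor gene of stellate cells, was at 1.70 and 1.36 TPM, close to the level of Lrat. The antisense gene Rbm46os overlaps Lrat and had 0 counts in both libraries.

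The list of genes for ester formation and hydrolysis, which leaves out Lrat, was detected throughout, with 8 of 8 genes reaching 1 TPM in each library. Plin2, a lipid droplet coat protein gene, was at 151 and 143 TPM. Lpl, lipoprotein lipase, was at 122 and 98.6 TPM, and Ces1d, a carboxylesterase, at 34.1 and 32.6 TPM. Pnpla3, a lipase of retinyl esters and triglycerides, was the lowest at 1.44 and 1.13 TPM, close to the level of Lrat.

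Of the pair Dhrs3 and Rdh10, the gene of the reducing enzyme was far above that of the oxidising enzyme. Dhrs3, which reduces retinaldehyde to retinol, lies at chr4:144892827-144928209 on the plus strand (gene ENSMUSG00000066026). Its level was 30.7 TPM in replicate 1 and 25.4 TPM in replicate 2 (28.0 ± 3.72), from 1566 and 1878 expected counts. The gene's length in the authors' tables was 1738 nt in replicate 1 and 1859 nt in replicate 2. The TPM gap between the pools thus also holds a difference in assigned length. Rdh10, which oxidises retinol to retinaldehyde and is required for retinoic acid synthesis in the embryo, lies at chr1:16105774-16133734 on the plus strand (gene ENSMUSG00000025921). Its level was 2.52 TPM in replicate 1 and 2.17 TPM in replicate 2 (2.34 ± 0.247), from 268 and 318 expected counts. The 2 genes did not overlap in any library.

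Dhrs3 exceeded Rdh10 by 12.2-fold in replicate 1, with a counting interval of 10.7 to 13.9, and by 11.7-fold in replicate 2, with an interval of 10.4 to 13.2. The SD of this ratio over the libraries was 0.326, so it differed little between the pools. Without the length correction the excess was smaller, at 5.84-fold and 5.91-fold in expected counts, since the Rdh10 transcripts are the longer ones. RNA levels of these 2 genes do not measure the activity of either enzyme. Rdh10 RNA was assigned mostly to its coding transcript Rdh10-201, with 95.5% in replicate 1 and 100% in replicate 2, and the remainder to a transcript that retains an intron.

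Dhrs3 was the gene whose RNA was spread over the most transcripts with appreciable shares, and 2 of its 7 transcripts held most of it. Dhrs3-206, which starts at base 144893077, held 38.9% of the gene's TPM in replicate 1 and 51.6% in replicate 2 (45.2% ± 8.97). Dhrs3-207, which starts 250 bases upstream at base 144892827, held 38.8% and 33.6% (36.2% ± 3.71). The shares of the 2 transcripts were nearly equal in replicate 1 and not in replicate 2, and their ranges over the libraries met without overlap, at 38.8% and 38.9%. The assignment itself was uncertain, with a posterior SD in the authors' tables of 62.5 counts for Dhrs3-206 and 47.6 for Dhrs3-207 in replicate 1. Dhrs3-201, annotated as a target of nonsense-mediated decay, held 13.1% and 8.37%. Protein-coding transcripts together held 84.7% and 89.1% (86.9% ± 3.11) of the Dhrs3 TPM.

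The bases before the 2 main Dhrs3 starts are shown because RNA was assigned to both. They lie outside annotated exons within 250 bases before each start (RefSeq, GRCm38.p6), on the plus strand, with CG dinucleotides in capitals. The first is chr4:144892577-144892826, before Dhrs3-207, and the second is chr4:144892911-144893076, before Dhrs3-206.
Dhrs3 upstream start: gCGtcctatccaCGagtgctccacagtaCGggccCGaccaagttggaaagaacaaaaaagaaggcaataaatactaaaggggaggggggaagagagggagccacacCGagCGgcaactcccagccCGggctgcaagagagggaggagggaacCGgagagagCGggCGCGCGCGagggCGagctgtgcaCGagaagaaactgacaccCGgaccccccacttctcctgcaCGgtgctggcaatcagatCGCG
Dhrs3 downstream start: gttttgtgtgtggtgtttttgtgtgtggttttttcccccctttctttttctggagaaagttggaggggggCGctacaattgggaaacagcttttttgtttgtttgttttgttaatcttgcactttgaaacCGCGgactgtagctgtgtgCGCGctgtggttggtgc
The 250 bases before the upstream start held 19 CG dinucleotides at 61.6% G or C, and the 166 bases before the downstream start held 5 at 45.8%. Unlike Rbp4, Dhrs3 thus had a substantial RNA share on both sides of a difference in base composition. The letters GTTAAT, the core bound by HNF1 factors of hepatocytes, were found before the downstream start at chr4:144893020-144893025.
Dhrs3 match to GTTAAT, in capitals: tttgttttGTTAATcttgcact
The same letters, on either strand, were in 7.10% of all promoter windows, and a match is not shown to be a bound site. A core bound by forkhead factors, TGTTTAC, was in 3.65% of windows and in 2 windows of these genes, at the upstream RefSeq start of Rbp4 and at a minor Dhrs3 start. These 3 motifs were chosen after the levels were seen.

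**Figure D2:**
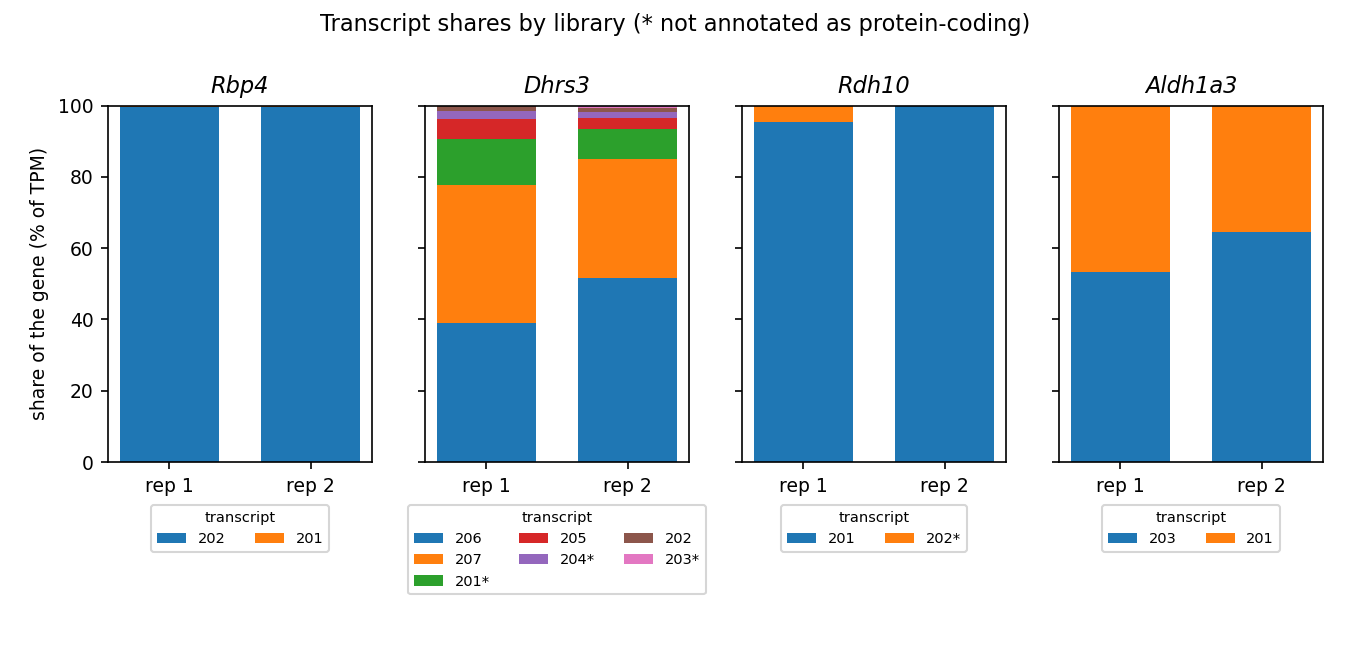
Share of each gene's TPM held by each annotated transcript in replicate 1 and replicate 2, as stacked bars from 0 to 100%, for Rbp4, Dhrs3, Rdh10 and Aldh1a3; an asterisk marks transcripts not annotated as protein-coding. Rbp4 is held almost wholly by transcript 202, whereas Dhrs3 is divided mainly between 206 and 207.

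Retinoic acid response elements are repeats of a receptor core in the same direction, spaced by 1, 2 or 5 bases. The receptor core AGGTCA was searched on both strands, and so were its common variants GGGTCA as well as AGTTCA together with GGTTCA, in any combination. RefSeq promoter windows were found for 6 of the 9 genes, with 13 starts, and Ttr, Rdh10 and Aldh1a3 had no entry. No such repeat was found in the 13 windows. Over all 32817 windows the repeats spaced by 1, 2 and 5 bases were in 0.222%, 0.268% and 0.0975%, so they were rare everywhere. The search covers 250 bases before and 50 after each start, and elements farther away were not examined.

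The 3 retinaldehyde dehydrogenase genes, whose products make retinoic acid, were each below 1 TPM and close to each other. Aldh1a2, the main enzyme of retinoic acid synthesis in the early embryo, lies at chr9:71215789-71296243 on the plus strand (gene ENSMUSG00000013584). It was at 0.932 TPM in replicate 1 and 0.846 TPM in replicate 2 (0.889 ± 0.0607), from 63 and 77 expected counts. Aldh1a1, a cytosolic enzyme abundant in adult liver, lies at chr19:20492715-20643465 on the plus strand (gene ENSMUSG00000053279). It was at 0.901 TPM and 0.857 TPM (0.879 ± 0.0314), from 55 and 70 expected counts. Their ranges overlapped, and neither gene was the higher one in both libraries.

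Aldh1a3, the third enzyme of the family, best known from the eye and nose of the embryo, was somewhat lower. It lies at chr7:66390890-66427517 on the minus strand (gene ENSMUSG00000015134). It was at 0.642 TPM in replicate 1 and 0.640 TPM in replicate 2 (0.641 ± 0.00158), from 46 and 56 expected counts. Both values lay below those of Aldh1a1 and Aldh1a2, but the difference was within counting error. The ratio of Aldh1a2 to Aldh1a3 was 1.45 in replicate 1, with a counting interval of 0.977 to 2.17, and 1.32 in replicate 2, with an interval of 0.925 to 1.90. At this depth an order among the 3 genes was not detectable. The assignment of Aldh1a3 reads to transcripts also set its level: Aldh1a3-203 held 53.2% and 64.5% of the TPM but 32.0% and 42.7% of the expected counts, the remainder in both cases belonging to the longer Aldh1a3-201.

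Together the 3 Aldh1a genes summed to 2.48 TPM in replicate 1 and 2.34 TPM in replicate 2 (2.41 ± 0.0937). Of that sum Aldh1a1 held 36.5% ± 0.115, Aldh1a2 36.9% ± 1.08 and Aldh1a3 26.6% ± 0.970. The sum was close to the level of Rdh10, the enzyme of the step before. The ratio of Lrat to Aldh1a2 was 2.21 in replicate 1, with a counting interval of 1.69 to 2.94, and 1.88 in replicate 2, with an interval of 1.46 to 2.44, so Lrat was the higher gene in both. Aldh1a2 and Wt1 are known from the mesothelium that covers the liver, and 7 of 8 mesothelial markers reached 1 TPM in both libraries, with none at 0. Their sum was 21.8 and 21.5 TPM, and Wt1 was at 1.23 and 1.31 TPM. Which cells held the RNA of the Aldh1a genes was not tested. The transcripts share little sequence with other genes: of all 100-base windows of their transcripts, 1 of 1954 in Aldh1a1 was also found in Aldh1a7, 1 of 4601 in Aldh1a3 in Casc4, and none in the other 7 genes.

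Other enzymes that can oxidise or reduce retinol and retinaldehyde ranged from far above Rdh10 and the Aldh1a genes to 0 counts. Of the 18 genes of this list, 11 reached 1 TPM in both libraries, and their sum was 414 and 329 TPM. Adh5, a broadly expressed alcohol dehydrogenase gene, was at 131 and 110 TPM, Dhrs4, a retinal reductase gene, at 60.6 and 55.8 TPM, and Adh1, a liver alcohol dehydrogenase gene, at 63.4 and 34.5 TPM. Rdh9 and Sdr16c5 had 0 counts in both libraries. Many of these enzymes also act on other substrates, so their sum is not one of retinol oxidation.

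Binding proteins that hold retinoids inside cells ranged from the level of the plasma carriers to the limit of detection. Of 7 genes 3 reached 1 TPM in both libraries. Fabp5, a fatty acid binding protein gene whose product can also bind retinoic acid, was at 1228 and 1120 TPM. Rbp2, a cellular retinol binding protein gene of the intestine, was at 33.7 TPM in replicate 1 and 13.5 TPM in replicate 2. Rbp2 was the only gene at 5 TPM or more in the 7 pathway lists with over a 2-fold difference between the pools, and the pancreas markers given above were higher in the same pool. The sum of bile duct markers was higher there too, at 26.7 and 13.5 TPM, with 4 of 6 at 1 TPM or above in each library and none at 0. Much of that sum was Spp1, at 17.3 and 6.74 TPM, and Epcam was at 2.74 and 1.03 TPM. The others differed less, with Krt19 at 3.94 and 3.32 TPM and Krt7 at 1.60 and 1.57 TPM. Gut and stomach markers were at 45.2 and 44.2 TPM in sum, with 3 of 7 reaching 1 TPM in each library and none at 0 in both. The part of any of these in the Rbp2 difference was not tested. The lowest of the list by mean level was Rbp7, at 0 and 0.0929 TPM.

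The genes that break down retinoic acid were all near the limit of detection, with 0 of 3 at 1 TPM in both libraries. Cyp26a1, a retinoic acid hydroxylase whose gene responds to retinoic acid in many tissues, was at 0.155 and 0.186 TPM, from 8 and 13 expected counts. Cyp26b1 was at 0.0725 and 0.0310 TPM, and Cyp26c1 had 0 counts in both libraries. The summed Aldh1a level of 2.48 and 2.34 TPM thus stood above the summed Cyp26 level of 0.228 and 0.217 TPM in both pools. Cyp26a1 lies 415 kb from Rbp4 on chromosome 19, and the levels of the neighbours lay at opposite ends of the range.

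Receptors for retinoic acid were present at low levels, with 5 of 6 genes reaching 1 TPM in each library. Rxrb was the highest at 17.2 and 15.2 TPM, Rxra followed at 5.36 and 4.31 TPM, and Rara, the alpha receptor of retinoic acid, was at 4.07 and 4.16 TPM. Rxrg was the lowest at 0.321 and 0.464 TPM. Of 10 textbook targets of retinoic acid, 5 reached 1 TPM in both libraries. Tgm2, a transglutaminase gene, was at 72.1 and 62.7 TPM, Rarres2, the chemerin gene, at 38.0 and 30.3 TPM, and Nrip1, a nuclear receptor corepressor gene, at 17.9 and 16.5 TPM. Stra8, the germ cell gene that retinoic acid switches on, had 0 counts in both libraries.

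**Figure D3:**
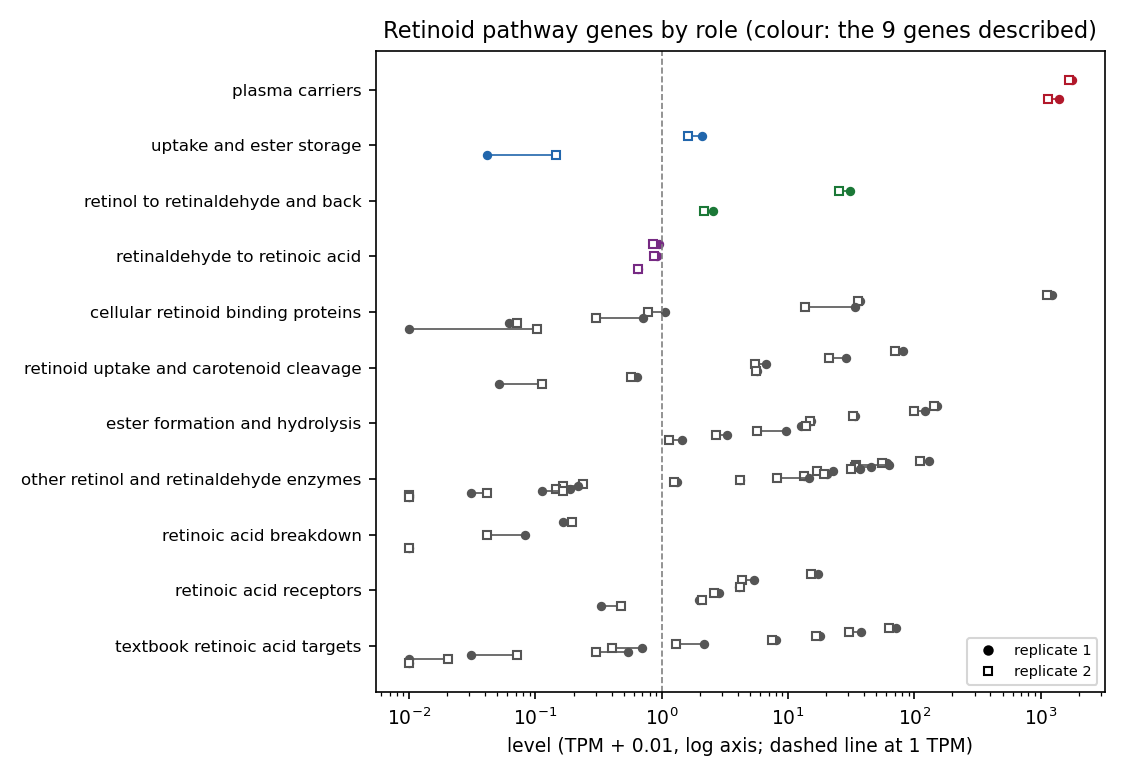
Level of each retinoid pathway gene as TPM + 0.01 on a log axis, grouped by role, with a filled circle for replicate 1 and an open square for replicate 2 joined by a line; the 9 genes described are in colour and the dashed line is 1 TPM. The Aldh1a genes and the breakdown genes lie left of the line, and the plasma carriers lie farthest right together with Fabp5 of the cellular binding proteins.

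Between the 2 pools the 3 most abundant of the 9 genes differed little, and the others were too low for the fold rules used here. Of the 9, 3 (Rbp4, Ttr and Dhrs3) reached 5 TPM in either library, and 0 of these differed by more than 2-fold on the scale of TPM + 1, against 0.672% of all genes tested. At 1.5-fold the count was also 0, against 1.83% of all genes. With so few genes and so few differences in the whole table, neither count sets the 9 genes apart. Of the 9 genes 8 were lower in replicate 2, and Stra6 was the exception, while 60.8% of all genes at 5 TPM or more were lower too. That count depended on the scaling. It was 7 of 9 with TMM or median-of-ratios scaling of counts, where Rbp4 turned to slightly higher in replicate 2. With spike-in scaling of counts it was 2 of 9 (Ttr and Lrat). The median of all genes tested then lay 0.18 from its value by TPM on the log2 scale. Part of that move came with dropping the length correction, since counts scaled by library totals gave a median of -0.002. By TPM the median difference of all those genes was -0.04 on the log2 scale and their SD 0.26. With TMM and with median-of-ratios scaling that median was 0.02, and with spike-in scaling it was 0.14. The share of all genes lower in replicate 2 was counted by TPM alone.

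Counting error alone was exceeded for Ttr under each of the 4 scalings tried, and for Dhrs3 and Lrat under some of them. The ratio of replicate 2 to replicate 1 in expected counts, scaled by library totals, had a 95% interval wholly below 1 for 3 of the 8 genes with enough counts, against 19.1% of all genes with 10 or more counts in either library. For Ttr the ratio was 0.841, with an interval of 0.831 to 0.852. For Dhrs3 it was 0.924, with an interval of 0.863 to 0.988. For Lrat it was 0.800, with an interval of 0.687 to 0.931. With TMM scaling the Dhrs3 interval reached 1 (0.875 to 1.002), and with spike-in scaling the Lrat interval did so too (0.760 to 1.03). Spike-in scaling left Ttr alone below 1, at 0.931 (0.920 to 0.943), against 5.93% of all genes, and put the Rbp4 interval above 1, at 1.08 to 1.11. The share of all genes with an interval above 1 was not counted. On the log2 scale Rbp4 was then at 0.13, beside a median of 0.14 for all genes at 5 TPM or more, so this does not set Rbp4 apart. The direction of Dhrs3 turned under spike-in scaling, to 0.031 on the log2 scale, against -0.11 with library totals. These intervals hold no variation between pools of embryos, which 1 library on each side cannot give.

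For the other 5 genes the interval with library totals included 1. The ratio was 0.990 for Rbp4 (0.978 to 1.00), 0.914 for Rdh10 (0.774 to 1.08) and 0.941 for Aldh1a2 (0.666 to 1.34). It was 0.980 for Aldh1a1 (0.679 to 1.42) and 0.938 for Aldh1a3 (0.623 to 1.42). The Aldh1a intervals are wide, so equal levels of these genes in the pools were not shown.

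By TPM the difference between the pools was larger for Ttr than for Rbp4. With 1 library on each side this does not show that the carriers vary apart. The SD of such differences over all genes at 5 TPM or more was 0.26 on the log2 scale. Ttr was 1.23-fold higher in replicate 1 by TPM, while Rbp4 was 1.05-fold higher, and the Ttr to Rbp4 ratio was 0.800 in replicate 1 and 0.680 in replicate 2 (log2 -0.44 ± 0.17). Of the hepatocyte markers 11 of 12 were lower in replicate 2, with a median log2 difference of -0.30 and a range from -0.63 (Ahsg) to 0.04 (Apoa2), beside -0.30 for Ttr and -0.07 for Rbp4. Markers of other cells were lower too: 8 of 8 endothelial markers, with a median of -0.14, and 5 of 6 bile duct markers. The bile duct median was -0.54 over the 4 with a mean of 1 TPM or more. Among these Spp1 was at -1.24 and Epcam at -0.88, while Krt19 was at -0.19 and Krt7 at -0.01. The stellate and mesenchymal markers had a median of -0.06 and a range from -0.36 (Reln) to 0.29 (Des), beside -0.24 for Lrat. The mesothelial markers had a median of 0.05, beside -0.07 for Aldh1a2. Each of these medians leaves out markers with a mean below 1 TPM. The part of cell makeup in any of these differences was not tested, and the spike-ins and library totals gave different zero points.

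**Figure D4:**
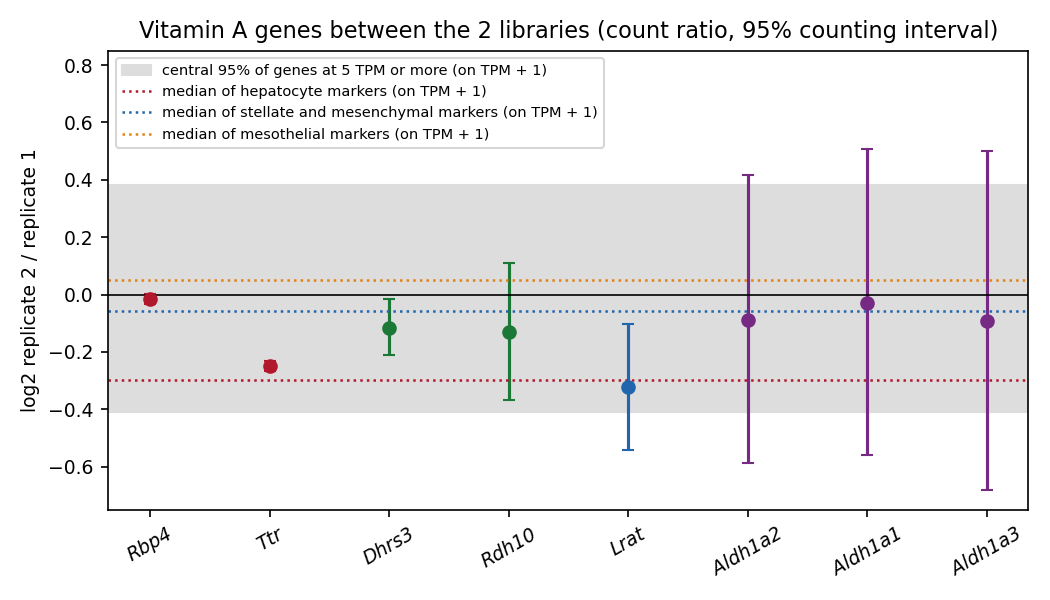
Log2 ratio of replicate 2 to replicate 1 in expected counts scaled by library totals for 8 of the 9 genes, as points with 95% counting intervals (Stra6, with 2 and 4 counts, is left out); the grey band is the central 95% of genes at 5 TPM or more and dotted lines are medians of marker lists, both on TPM + 1. The medians are over markers with a mean of 1 TPM or more. Ttr, Dhrs3 and Lrat have intervals below 0, and all 8 points lie within the band.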

How the data were processed

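Total RNA of 2 libraries of 1 group was analysed from a gene table and a transcript table for each. Both rest on mm10 and annotation M4, per the companion descriptions. Not given in the sources used here are the aligner, the quantifier and the strand setting. Unscaled expected counts per gene or transcript are as deposited by the authors. TPM and its posterior mean are likewise deposited by the authors, normalised for length and library total with spike-ins in that total. Here 97 spike-in and 26248 numeric entries were left out and TPM was rescaled to 1000000. GENCODE M21, built on GRCm38 like the tables, gave symbols and positions and named 42462 of 43346 genes.

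The genes and lists were chosen with earlier results of these data known. All 9 genes are named, and of each pathway list the 3 highest, the lowest and any over 2-fold; Lhx2, Wt1, Otx2 and the other genes outside this rule were named after their values were seen. Not every gene the rule gives is reported here. Libraries were compared as log2 of TPM + 1 and as count ratios with Clopper-Pearson intervals, with no p-value. Without strand information, antisense reads cannot be told apart. The fold rule was tested on simulated data. Alternatives were posterior mean TPM, counts per 1000000, deposited TPM, other limits, a pseudocount of 0.1, no filter, and scaling by TMM (edgeR 4.0.16), median of ratios (DESeq2 1.42.0) or spike-ins. R 4.3.3 and Python 3.11.15 were used, with SciPy 1.17.1, pandas 2.3.3, NumPy 2.4.6 and matplotlib 3.10.9. Protein sequences were not used here.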

Additional observations from a re-analysis of the deposited data

How the results depend on the processing

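With expected counts per 1000000 in place of TPM, which drops the length correction, the Ttr share of the summed level was 48.6% (42.0% by TPM) and 8 of the 9 genes reached 1 (5 by TPM). The log2 ratios then became -0.011 for Ttr over Rbp4, -2.55 for Rdh10 over Dhrs3, -0.17 for Aldh1a1 over Aldh1a2 and 6.93 for Lrat over Stra6, against -0.44, -3.58, -0.02 and 4.81 by TPM. With posterior mean TPM, log2 Aldh1a2 over Aldh1a3 was 0.10 (0.47 by TPM) and log2 Lrat over Stra6 was 1.47. At limits of 0.1 and 5 TPM, 8 and 3 genes were detected, and the share of all genes at these limits was not counted. The Dhrs3 difference between the pools was -0.26 by TPM, -0.11 by counts per 1000000 and 0.031 under spike-in scaling of counts, so its direction turned. Part of the move from TPM thus came with dropping the length correction. Against TPM, spike-in scaling of counts moved the median of all genes tested by 0.18 on the log2 scale. Counts per 1000000 without spike-in scaling already moved it by 0.04. With spike-in scaling 2 of 9 genes were lower in replicate 2, against 7 under TMM and under median of ratios. The Rbp4 difference was 0.01 under both of these and 0.13 under spike-in scaling. For these scalings the share of all genes lower in replicate 2 was not counted. Of the 3 genes at 5 TPM or more none passed 2-fold under the 6 alternatives that kept that limit; without it none of the 9 passed on TPM + 1, a scale on which genes below 1 TPM can hardly do so. Chosen after the data were seen, other scalings of the count ratio left 2 genes with an interval below 1 under TMM and median of ratios, and 1 under spike-in scaling, against 3. Each library alone gave log2 Lrat over Stra6 of 6.05 and 3.57; with 2 libraries, leaving one out is no test of stability. No paired analysis was possible because the design holds a single group. Depth limits Stra6, with 2 and 4 counts, and any order among the Aldh1a genes.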
